A study of Mus musculus with 9 samples.

Results

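Lysosome and autophagy genes were followed across p53-deficient mouse embryonic cell clones of 3 ploidies. The set held 42 genes: 24 soluble enzymes of the lysosome with their helper proteins, 7 proteins of its membrane and proton pump, and 11 autophagy factors including Tfeb. Each gene was represented by its brightest probe with a matching RefSeq accession on a mouse Agilent array. All 42 had a probe, and 41 entered the test, among 21797 features (12434 named genes and 9363 probes without a gene name). The exception was Ctss, the cathepsin of antigen-presenting cells, which was not well above background on any of the 9 arrays.

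The study asked how the transcriptome of triploid cells compares with those of diploid and tetraploid cells in tumour formation. Its 9 samples were 3 diploid, 3 triploid and 3 tetraploid clones, with 1 one-colour array each. All 9 carry the genotype p53-/- in the labels, were grown in Eagle's minimum essential medium with fetal bovine serum, and received no treatment. The free-text descriptions of 8 clones name another number in place of p53, and the genotype field was used here. In 7 clones the sample name adds a number to that of diploid clone 1, and no label says whether clones came from separate animals, so p-values measure only the spread between these clones.

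Lysosomes degrade material delivered by endocytosis and autophagy. Acid hydrolases work in a lumen that the V-type proton pump acidifies, and heavily glycosylated membrane proteins shield the organelle's limiting membrane from them. In autophagy, a membrane that carries lipid-bound LC3 and GABARAP proteins closes around cytoplasmic cargo and fuses with the lysosome. Tfeb and its relatives of the MiT/TFE family are the transcription factors best known to raise many lysosomal genes together. They bind an E-box, CACGTG, and prefer it inside a longer palindrome called the CLEAR element, in which TCACGTGA is flanked by G and C.

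The letters of these elements were searched in the promoter windows of RefSeq's table (build GRCm38.p6), which run from 250 bases before to 50 after each gene's start. The windows of 37 of the 42 genes were in the table; Asah1, Becn1, Ctsb, Map1lc3a and Npc1 were not. CACGTG, which reads the same on both strands, occurred in 15 of the 37 (40.5%), against 8.09% of the 27025 genes in the table. TCACGTGA, which contains it, occurred in 7 (18.9%) against 1.12%, and the full CLEAR palindrome in 1, Cln3 (2.70%), against 0.370% of all genes. The shares were lower in 59 lysosomal and pump genes outside the set. There CACGTG occurred in 11 (18.6%), TCACGTGA in 5 (8.47%) and the full palindrome in 1 (1.69%). By role, CACGTG lay in the windows of 5 of 6 membrane proteins, 8 of 22 hydrolases and 2 of 9 autophagy factors. The 2 autophagy factors were Atg5 and Atg7.

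The windows of 3 membrane or pump genes with TCACGTGA (Cln3, Mcoln1 and Atp6v0d1), of Lamp1 with 4 separate copies of CACGTG, and of the hydrolases Ctsd and Gla show how these letters sit. Each is given 5′ to 3′ on the gene's own strand, from 250 bases before the start to 15 after it, at chr7:126583222-126583486 (-) for Cln3, chr8:3500269-3500533 (+) for Mcoln1, chr8:105566050-105566314 (-) for Atp6v0d1, chr8:13158911-13159175 (+) for Lamp1, chr7:142387813-142388077 (-) for Ctsd and chrX:134600991-134601255 (-) for Gla. Capitals mark CACGTG, extended to TCACGTGA or to the CLEAR palindrome where those letters are present.
Cln3: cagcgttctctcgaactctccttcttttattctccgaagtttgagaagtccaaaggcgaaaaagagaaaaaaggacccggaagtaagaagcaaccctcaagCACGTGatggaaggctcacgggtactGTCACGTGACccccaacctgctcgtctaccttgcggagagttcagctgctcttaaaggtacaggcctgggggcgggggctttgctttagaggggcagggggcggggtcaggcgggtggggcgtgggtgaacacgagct
Mcoln1: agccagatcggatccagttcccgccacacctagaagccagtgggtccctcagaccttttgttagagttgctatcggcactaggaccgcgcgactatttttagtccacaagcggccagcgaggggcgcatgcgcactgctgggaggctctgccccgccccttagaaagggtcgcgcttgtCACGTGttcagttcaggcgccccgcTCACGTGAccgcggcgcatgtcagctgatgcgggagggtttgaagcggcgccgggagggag
Atp6v0d1: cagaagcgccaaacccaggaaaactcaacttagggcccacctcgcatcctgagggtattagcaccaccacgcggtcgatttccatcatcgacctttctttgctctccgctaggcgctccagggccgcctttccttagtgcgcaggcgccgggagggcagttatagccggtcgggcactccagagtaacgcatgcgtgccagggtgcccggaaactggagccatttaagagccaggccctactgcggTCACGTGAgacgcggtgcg
Lamp1: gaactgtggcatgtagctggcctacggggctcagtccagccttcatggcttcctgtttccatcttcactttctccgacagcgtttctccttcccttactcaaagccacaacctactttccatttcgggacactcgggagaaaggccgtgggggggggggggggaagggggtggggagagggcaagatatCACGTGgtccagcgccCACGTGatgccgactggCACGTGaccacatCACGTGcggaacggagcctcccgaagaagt
Ctsd: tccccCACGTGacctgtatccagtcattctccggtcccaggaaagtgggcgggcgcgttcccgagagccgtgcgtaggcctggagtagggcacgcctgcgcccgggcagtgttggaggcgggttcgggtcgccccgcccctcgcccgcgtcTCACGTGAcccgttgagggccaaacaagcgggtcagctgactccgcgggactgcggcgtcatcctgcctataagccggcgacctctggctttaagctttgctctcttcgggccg
Gla: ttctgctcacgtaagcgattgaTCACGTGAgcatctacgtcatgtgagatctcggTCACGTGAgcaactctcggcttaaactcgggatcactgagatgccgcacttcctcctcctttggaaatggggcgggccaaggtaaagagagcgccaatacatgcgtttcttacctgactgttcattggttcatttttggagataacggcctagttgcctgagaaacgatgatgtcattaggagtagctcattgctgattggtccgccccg
A match is a description of letters and not a measured binding site. Cln3 and Ctsa have a second RefSeq window, at another start, without CACGTG.

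Values are log2 of the processed probe signal minus the array's own 75th percentile, so 0 is the 75th percentile of that array. They compare 1 probe between clones and not 1 gene with another. Between 44.8% and 50.9% of spots were well above background on each array, none was saturated, and the 75th percentile lay between 215 and 407 intensity units. Diploid clone 1 was alone on its slide and the other 8 arrays shared a second slide. Tetraploid clone 3 gave the lowest value of the 9 clones for 32.3% of all features, and its median feature stood at -0.26 relative to each feature's mean. For this reason the all-feature median was subtracted from list medians by clone. Over all features, the median difference was 0.095 for triploid minus diploid, -0.016 for tetraploid minus diploid and 0.16 for triploid minus tetraploid. Differences of single genes are given without subtracting these shifts. The 3 comparisons share clones, so they are not independent of each other.

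Of the cell-type marker lists, all 14 fibroblast and mesenchyme markers were tested, and 11 were well above background on all 9 arrays. Of 14 macrophage markers, 9 were dark on all 9 arrays, among them Ptprc, Adgre1, Lyz2, Mpeg1 and Spi1. The osteoclast markers Calcr, Dcstamp and Mmp9 were likewise dark, as were 4 of 11 epithelial markers, among them Epcam and Cdh1. Other markers of these lists were well above background on all 9 arrays: 4 of 14 macrophage, 5 of 8 osteoclast and 3 of 11 epithelial markers.

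**Figure D1:**
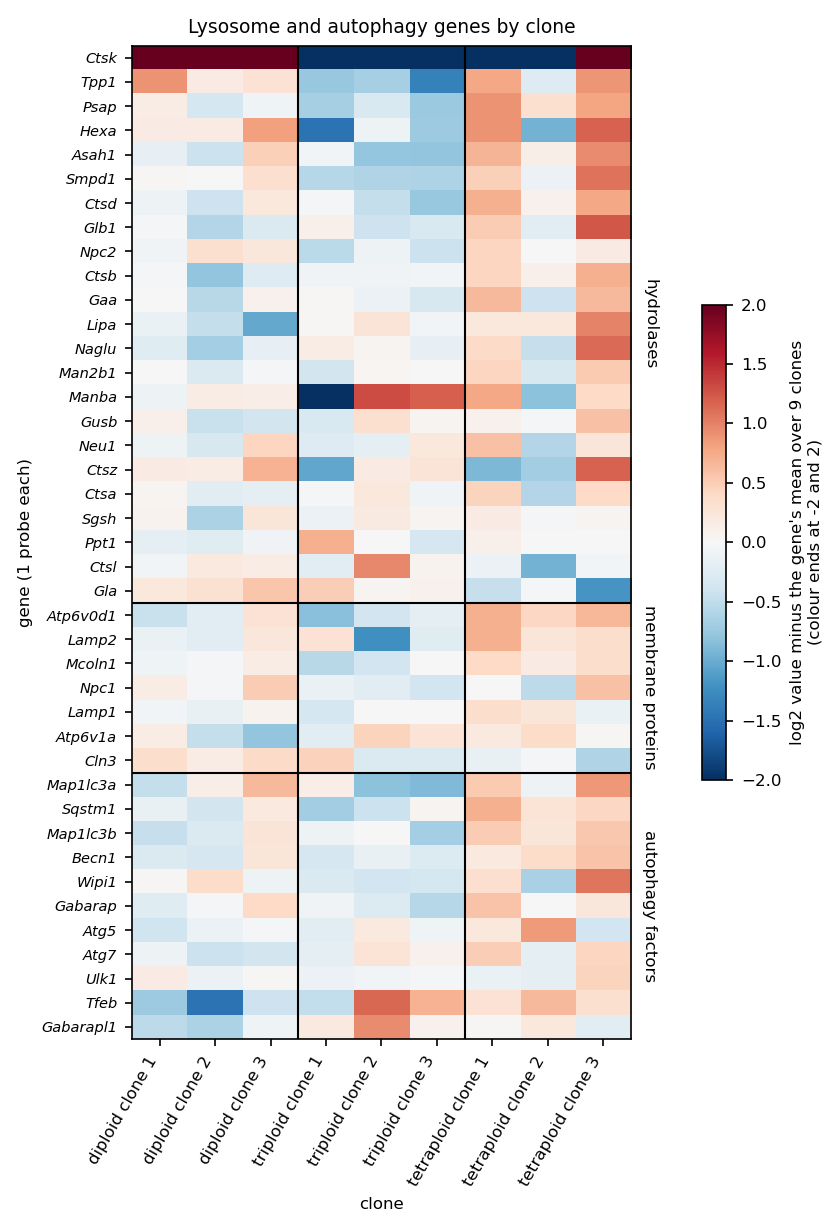
Heat map of the 41 tested genes (rows, grouped by role) in the 9 clones (columns); colour is the log2 value minus the gene's mean over the 9 clones, ending at -2 and 2. Tetraploid clone 3 was the highest of the 9 clones for 19 genes and tetraploid clone 1 for 11.

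Across the 41 genes, expression stood higher in the tetraploid clones than in the triploid clones for 35 and lower for 6. The median triploid minus tetraploid difference was -0.40. Of all features, 61.9% had a difference above 0, and of named genes 52.8%. Only 1 of the 41, Psap, passed the test in that comparison (adjusted p under 0.05 over all features, limma with Benjamini-Hochberg), which is 2.44% of the genes against 2.71% of all features called, and 1.62% called lower. In triploid minus diploid 0 of 41 passed, against 1.84% of all features, and 15 differences were above 0 (36.6%, against 57.7%). In tetraploid minus diploid 0 of 41 passed, against 0.0734% of all features. There, 34 differences were above 0 (82.9%, against 48.6% of all features and 58.8% of named genes). In the limma test of any difference among the 3 groups 0 of 41 passed, against 2.38% of all features. At an unadjusted p under 0.05, limma gave 6, 7 and 13 genes in the 3 pairwise comparisons, in this order: triploid minus diploid, tetraploid minus diploid, triploid minus tetraploid. The test of any difference gave 13. The matching shares of all features were 21.2%, 14.8%, 20.8% and 24.3%. Of the 13 genes in triploid minus tetraploid, 12 were lower (29.3% of the 41, against 9.90% of all features and 13.7% of named genes).

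Groups were most often separate, clone by clone, in triploid against tetraploid cells. All 3 triploid clones lay below all 3 tetraploid clones for 13 of the 41 genes (31.7%), against 11.3% of all features and 15.5% of named genes. They lay above them for 1 gene, Gla (2.44%, against 14.7% of all features and 12.3% of named genes). Against diploid cells, the tetraploid clones lay wholly above for 9 genes (22.0%, against 11.0% of all features and 15.4% of named genes). They lay wholly below for 2 (4.88%, against 11.2% of all features and 7.32% of named genes). The triploid clones lay wholly below the diploid clones for 7 genes (17.1%, against 10.8% of all features and 11.8% of named genes). They lay wholly above for 2 (4.88%, against 17.1% of all features and 19.6% of named genes). The medians over the 41 genes were -0.13 for triploid minus diploid and 0.33 for tetraploid minus diploid. The first moved to -0.21 without diploid clone 1, -0.044 without diploid clone 3 and -0.080 without triploid clone 1, and the second to 0.53 without tetraploid clone 2. No test was made of the list.

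The tetraploid clones stood furthest apart and the triploid clones closest. The SD of the clone medians that follow was 0.46 in tetraploid, 0.17 in diploid and 0.0835 in triploid clones. Relative to all features, the median of the 41 genes was -0.0097, -0.21 and 0.12 in diploid clones 1, 2 and 3. It was -0.34, -0.21 and -0.18 in the triploid clones and 0.44, -0.13 and 0.78 in the tetraploid clones. Tetraploid clone 2 thus lay within the range of the diploid clones, while clones 1 and 3 lay above all the other clones. On the same scale the named genes stood at 0.042, 0.016 and 0.19 in tetraploid clones 1, 2 and 3. They stood between -0.11 and 0.032 in the diploid and triploid clones. Without tetraploid clone 3 the median triploid minus tetraploid difference moved from -0.40 to -0.19, and without tetraploid clone 2 it moved to -0.63. The median SD between clones of a group over the 41 genes was 0.36, from 0.19 for Mcoln1 to 2.86 for Ctsk.

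**Figure D2:**
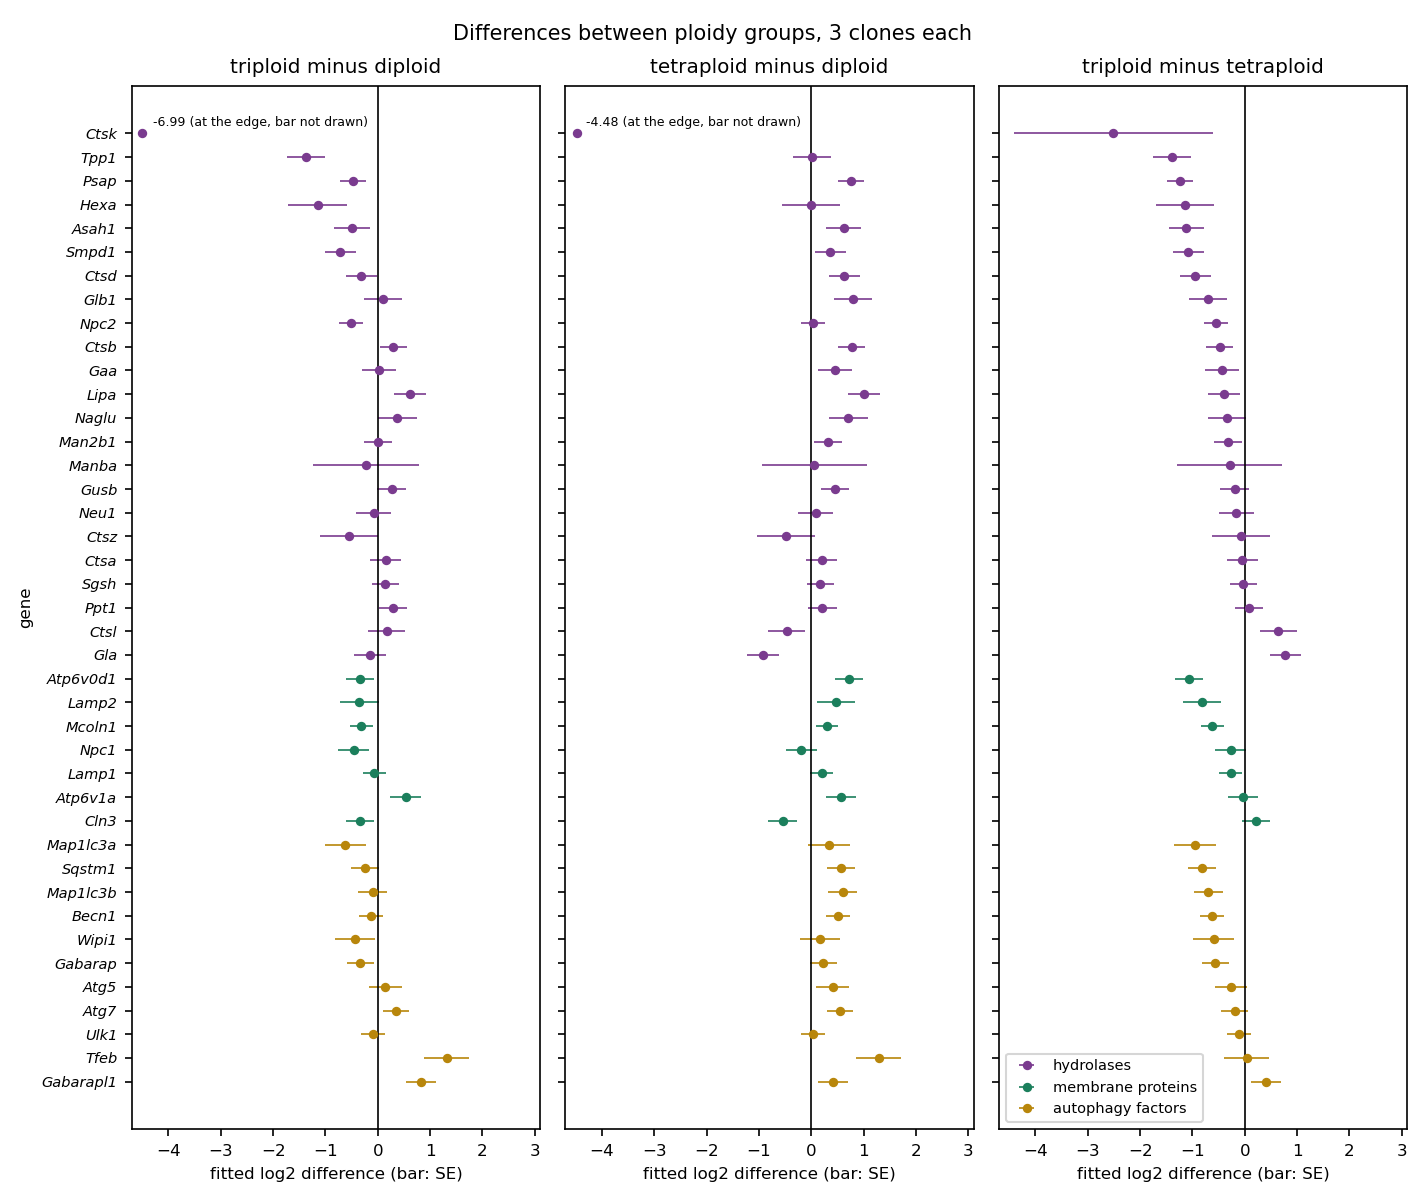
Fitted log2 difference (point) with its standard error (bar) for each of the 41 genes in triploid minus diploid, tetraploid minus diploid and triploid minus tetraploid cells, 3 clones a group, coloured by role. Ctsk, at -6.99 and -4.48 against diploid cells, is drawn at the edge; in the right panel 35 points lie below 0.

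Among the soluble proteins, Psap was the gene that passed the test. It encodes prosaposin, the precursor of the saposins, which present sphingolipids to their hydrolases. Psap measured 4.30, 3.80 and 4.07 in diploid clones 1, 2 and 3, 3.49, 3.85 and 3.42 in the triploid clones, and 5.04, 4.47 and 4.94 in the tetraploid clones. All tetraploid clones exceeded every other clone, while the triploid and diploid ranges overlapped. The triploid mean was lower than the tetraploid mean by 2.35-fold, a log2 difference of -1.23 ± 0.25 (SE, n = 3 and 3, limma adjusted p = 0.0376). Against diploid cells the difference was -0.47 ± 0.25 in triploid cells (adjusted p = 0.314) and 0.76 ± 0.25 in tetraploid cells (adjusted p = 0.203). The call did not hold without diploid clone 1 (adjusted p = 0.0559), triploid clone 2 (0.0882), triploid clone 3 (0.138), tetraploid clone 1 (0.133) or tetraploid clone 3 (0.111), with differences from -1.37 to -1.12; it held in 10 of 19 alternative settings. The RefSeq windows of Psap hold no CACGTG.

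Smpd1 and Asah1, enzymes of sphingolipid breakdown, had the same order of group means as Psap, lowest in triploid and highest in tetraploid cells, and did not pass the test. Genes of other roles also had this order, among them Ctsd, Lamp2, Mcoln1, Atp6v0d1, Sqstm1 and Gabarap. Gla and Hexa, described below and also acting on sphingolipids, did not have it. Their diploid, triploid and tetraploid means were 8.85, 8.70 and 7.93 for Gla and 3.86, 2.71 and 3.85 for Hexa. Smpd1, the acid sphingomyelinase, measured 4.27, 4.23 and 4.58 in the diploid clones, 3.68, 3.64 and 3.62 in the triploid clones, and 4.72, 4.13 and 5.33 in the tetraploid clones. The triploid clones lay close together and below every other clone, and tetraploid clone 2 lay below the diploid clones. The triploid minus tetraploid difference was -1.08 ± 0.30 (adjusted p = 0.0852), and triploid minus diploid was -0.71 ± 0.30 (adjusted p = 0.211). Asah1, the acid ceramidase, measured 3.75, 3.48 and 4.40 in the diploid clones, 3.86, 3.14 and 3.13 in the triploid clones, and 4.60, 4.03 and 4.86 in the tetraploid clones. Its triploid clones lay below the tetraploid clones but not below the diploid ones, and the triploid minus tetraploid difference was -1.11 ± 0.34 (adjusted p = 0.109). A second Asah1 probe gave a difference of -1.14 for the same comparison.

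Among the 23 tested hydrolases of the set, only Gla had every tetraploid clone below every other clone. The same held for Dnase2a, a lumenal protein outside the set, with 3.81, 3.95 and 3.46 in the tetraploid clones. Gla encodes alpha-galactosidase A, which removes galactose from globotriaosylceramide. Gla measured 8.70, 8.80 and 9.04 in the diploid clones, 8.98, 8.54 and 8.58 in the triploid clones, and 8.02, 8.45 and 7.31 in the tetraploid clones. Triploid and diploid clones overlapped. The tetraploid minus diploid difference was -0.92 ± 0.30 (adjusted p = 0.212) and triploid minus tetraploid was 0.78 ± 0.30 (adjusted p = 0.189). Its window holds TCACGTGA at 2 places, while its difference was opposite in sign to the median of the set in tetraploid minus diploid cells. Gla lies on the X chromosome, and the number of X chromosomes in each clone was not analysed here.

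Hexa encodes the alpha subunit of beta-hexosaminidase, the enzyme that degrades GM2 ganglioside. It measured 3.63, 3.64 and 4.30 in the diploid clones, 2.00, 3.37 and 2.75 in the triploid clones, and 4.37, 2.53 and 4.65 in the tetraploid clones. All triploid clones lay below the diploid clones, and tetraploid clone 2 lay among the triploid values. The triploid minus diploid difference was -1.15 ± 0.56 (adjusted p = 0.276).

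Tpp1, the tripeptidyl peptidase that trims peptides from their amino end in the lumen, measured 0.70, -0.044 and 0.091 in the diploid clones, -0.96, -0.87 and -1.55 in the triploid clones, and 0.57, -0.46 and 0.68 in the tetraploid clones. Every triploid clone lay below every diploid and tetraploid clone. The difference was -1.37 ± 0.36 from diploid cells (adjusted p = 0.0876) and -1.39 ± 0.36 from tetraploid cells (adjusted p = 0.0761), so both missed the threshold. Without tetraploid clone 2, triploid minus tetraploid was -1.75 (adjusted p = 0.0322) for Tpp1 and -1.38 (adjusted p = 0.0337) for Smpd1. Each passed in only that 1 of 19 alternative settings. Over all of them the limma adjusted p rose to 0.224 for Tpp1 (difference -1.75 to -1.06) and 0.219 for Smpd1 (-1.38 to -0.78).

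Ctsk encodes cathepsin K, a collagen-degrading protease known from osteoclasts and also made by fibroblasts. Ctsk measured 2.94, 4.37 and 4.49 in the diploid clones, -3.07, -2.96 and -3.15 in the triploid clones, and -3.47, -3.26 and 5.09 in the tetraploid clones. It was well above background on all 3 diploid and all 3 triploid arrays but on only 1 tetraploid array, that of clone 3. Tetraploid clone 3 stood with the diploid clones and tetraploid clones 1 and 2 with the triploid clones, with no value between -2.96 and 2.94. The triploid minus diploid difference was -6.99 ± 1.90 (adjusted p = 0.0921) and tetraploid minus diploid was -4.48 ± 1.90 (adjusted p = 0.318). Over 18 alternative settings, triploid minus diploid passed in 2 (limma adjusted p up to 0.238) and tetraploid minus diploid in 1 (up to 0.653). Without tetraploid clone 3 the adjusted p was 0.000314 for triploid minus diploid (-6.99). The remaining tetraploid arrays were not well above background, so no size is given for tetraploid minus diploid without that clone (adjusted p = 0.00428), and the turn of triploid minus tetraploid from -2.51 to 0.31 is between signals at or near background. Of the osteoclast markers, 5 of 8 were tested, with summed signals of 3.63 to 4.29 times the array's 75th percentile in the diploid clones, 2.85 to 2.96 in the triploid and 1.42 to 2.65 in the tetraploid clones; their part in the Ctsk result was not tested.

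The other cathepsins overlapped between most groups. Ctsd, the main aspartic protease of the lysosome, measured 5.82, 5.50 and 6.14 in the diploid clones, 5.90, 5.45 and 5.17 in the triploid clones, and 6.63, 6.01 and 6.70 in the tetraploid clones. The tetraploid clones lay above the triploid clones, and the difference of -0.94 ± 0.29 did not pass (adjusted p = 0.116); a second Ctsd probe gave -1.19. Ctsb, a cysteine protease, averaged 5.45 ± 0.40 in diploid, 5.74 ± 0.0098 in triploid and 6.22 ± 0.30 in tetraploid cells (SD, n = 3 each), with the tetraploid clones above all others. Ctsl, Ctsz and Ctsa, 2 further cysteine cathepsins and the protective protein of beta-galactosidase and neuraminidase, overlapped in all 3 comparisons, with differences from -0.54 to 0.64.

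Lipa had the largest positive difference from diploid cells among the 23 tested hydrolases of the set. It encodes lysosomal acid lipase, which frees cholesterol and fatty acids from lipoprotein lipids. Lipa measured 1.23, 0.88 and 0.33 in the diploid clones, 1.38, 1.61 and 1.30 in the triploid clones, and 1.57, 1.56 and 2.35 in the tetraploid clones. All diploid clones lay below the 6 other clones, and the tetraploid minus diploid difference was 1.01 ± 0.31 (adjusted p = 0.179). Npc2, the lumenal carrier that takes up the cholesterol freed by Lipa, gave -0.52 ± 0.23 for triploid minus diploid (adjusted p = 0.229), with no overlap between the groups.

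The glycosidases Gaa, Glb1, Gusb, Naglu, Man2b1 and Manba, the sulfatase Sgsh, the sialidase Neu1 and the thioesterase Ppt1 complete the hydrolases. For these 9 genes the triploid minus tetraploid differences ran from -0.71 (Glb1, beta-galactosidase) to 0.082 (Ppt1, which removes palmitate from proteins), and the groups overlapped for all 9 in that comparison. Manba, beta-mannosidase, had the widest spread of them, because triploid clone 1 stood at -3.25, not well above background, while the other triploid clones stood at 1.06 and 0.96. Sgsh had probes that disagreed: the brightest gave a triploid minus tetraploid difference of -0.028 and a dimmer one gave -1.58. Over the 23 tested hydrolases the median difference was -0.078 for triploid minus diploid, 0.21 for tetraploid minus diploid and -0.40 for triploid minus tetraploid.

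**Figure D3:**
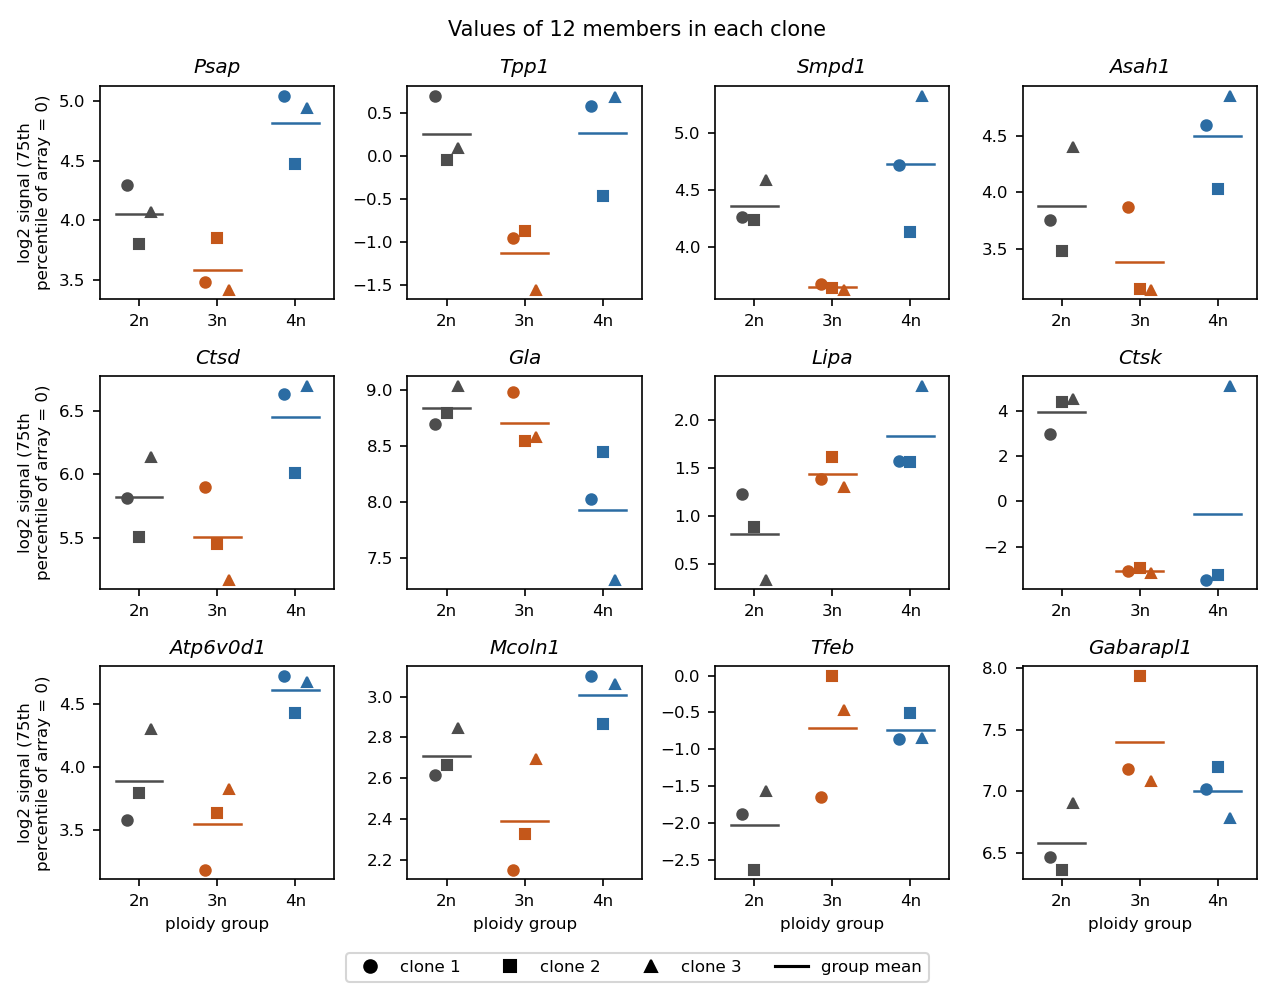
Values of 12 of the genes in each clone, as log2 signal with the array's 75th percentile at 0, by ploidy group (2n, 3n, 4n); symbols mark the clone number, which pairs nothing between groups, and lines the group means. Psap shows 3 tetraploid clones above all others, and Ctsk shows tetraploid clone 3 with the diploid clones.

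Of the membrane proteins and pump subunits, 0 of 7 passed the test in any comparison (all features: 1.84% in triploid minus diploid, 0.0734% in tetraploid minus diploid and 2.71% in triploid minus tetraploid). In triploid against tetraploid cells 6 of 7 stood lower and 1 higher (14.3%, against 61.9% of all features and 52.8% of named genes). Atp6v0d1, a subunit of the membrane sector of the proton pump, measured 3.58, 3.79 and 4.30 in the diploid clones, 3.18, 3.63 and 3.83 in the triploid clones, and 4.73, 4.44 and 4.68 in the tetraploid clones. The tetraploid clones exceeded all other clones. The difference was -1.07 ± 0.27 for triploid minus tetraploid (adjusted p = 0.0667) and 0.73 ± 0.27 for tetraploid minus diploid (adjusted p = 0.253). With normexp background correction, triploid minus tetraploid was -1.13 and passed (adjusted p = 0.0409). This was the only pass in 19 alternative settings, with limma adjusted p up to 0.190.

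Mcoln1 encodes TRPML1, the calcium-releasing channel of the lysosomal membrane. Mcoln1 measured 2.62, 2.66 and 2.84 in the diploid clones, 2.15, 2.33 and 2.69 in the triploid clones, and 3.101, 2.86 and 3.06 in the tetraploid clones. Its tetraploid clones also lay above all others, and the triploid minus tetraploid difference was -0.62 ± 0.22 (adjusted p = 0.149). Both promoter windows, of Atp6v0d1 and of Mcoln1, are among those printed above with TCACGTGA.

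Atp6v1a, the catalytic subunit of the pump's cytosolic sector, did not follow Atp6v0d1. It measured 4.32, 3.69 and 3.38 in the diploid clones, 3.95, 4.60 and 4.43 in the triploid clones, and 4.37, 4.54 and 4.19 in the tetraploid clones. Diploid clone 1 overlapped both other groups, and the differences were 0.53 ± 0.29 for triploid minus diploid (adjusted p = 0.331) and 0.57 ± 0.29 for tetraploid minus diploid (adjusted p = 0.396). Its window holds TCACGTGA as well. The difference between the patterns of the pump subunits was not tested.

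Lamp1 and Lamp2, the abundant glycoproteins of the limiting membrane, differed in how much they varied. Lamp1 averaged 7.95 ± 0.11 in diploid, 7.89 ± 0.21 in triploid and 8.15 ± 0.25 in tetraploid cells (SD, n = 3 each), and the groups overlapped in all 3 comparisons. Lamp2 measured 4.75, 4.67 and 5.11 in the diploid clones, 5.17, 3.65 and 4.64 in the triploid clones, and 5.59, 5.11 and 5.23 in the tetraploid clones. Triploid clone 2 was the lowest by about 1 log2 unit, and without it the triploid minus diploid difference of Lamp2 turned from -0.35 ± 0.37 (adjusted p = 0.635) to 0.067. The triploid minus tetraploid difference was -0.82 ± 0.37 (adjusted p = 0.244), and -0.40 without triploid clone 2.

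Npc1 and Cln3 had the most negative differences from diploid cells among the membrane genes, Npc1 in triploid and Cln3 in tetraploid cells. Npc1, which passes cholesterol from Npc2 through the membrane, measured -1.51, -1.69 and -1.16 in the diploid clones, -1.81, -1.88 and -2.05 in the triploid clones, and -1.66, -2.19 and -1.08 in the tetraploid clones. The triploid clones lay below the diploid clones by -0.46 ± 0.30 (adjusted p = 0.416). Cln3, the protein mutated in juvenile neuronal ceroid lipofuscinosis, measured 0.72, 0.51 and 0.75 in the diploid clones, 0.83, 0.073 and 0.069 in the triploid clones, and 0.22, 0.34 and -0.23 in the tetraploid clones. All tetraploid clones of Cln3 lay below the diploid clones, by -0.55 ± 0.27 (adjusted p = 0.384). A second Cln3 probe, above background on all 9 arrays, gave -0.83 for the same comparison and -1.19 for triploid minus diploid, where the brightest probe gave -0.34. Cln3 is the gene with the full CLEAR palindrome in its window.

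Among the autophagy factors, 0 of 11 passed the test in any comparison, while all 11 differences of tetraploid minus diploid were above 0, against 48.6% of all features and 58.8% of named genes. Their median was 0.42. Sqstm1, the p62 receptor that links ubiquitinated cargo to LC3, measured 2.87, 2.65 and 3.22 in the diploid clones, 2.32, 2.59 and 3.08 in the triploid clones, and 3.74, 3.29 and 3.44 in the tetraploid clones. Every tetraploid clone exceeded every other clone. The difference was 0.58 ± 0.27 for tetraploid minus diploid (adjusted p = 0.358) and -0.83 ± 0.27 for triploid minus tetraploid (adjusted p = 0.128).

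The LC3 and GABARAP genes encode the ubiquitin-like proteins that are joined to the autophagosome membrane. Map1lc3b measured 4.69, 4.85 and 5.40 in the diploid clones, 5.04, 5.14 and 4.46 in the triploid clones, and 5.66, 5.39 and 5.69 in the tetraploid clones. Diploid clone 3 overlapped the tetraploid clones, and the triploid clones lay below them by -0.70 ± 0.27 (adjusted p = 0.190). Map1lc3a measured 3.32, 3.92 and 4.45 in the diploid clones, 3.94, 2.98 and 2.92 in the triploid clones, and 4.33, 3.70 and 4.66 in the tetraploid clones. It overlapped in all 3 comparisons, with -0.95 ± 0.40 for triploid minus tetraploid (adjusted p = 0.217) and -0.62 ± 0.40 for triploid minus diploid (adjusted p = 0.414). Gabarap averaged 7.20 ± 0.33 in diploid, 6.86 ± 0.25 in triploid and 7.43 ± 0.29 in tetraploid cells (SD, n = 3 each), with the triploid clones below the tetraploid clones.

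Gabarapl1, a paralog of Gabarap, had its highest group mean in triploid cells, where Gabarap had its lowest. Gabarapl1 measured 6.47, 6.36 and 6.90 in the diploid clones, 7.18, 7.94 and 7.08 in the triploid clones, and 7.01, 7.20 and 6.78 in the tetraploid clones. All triploid clones lay above the diploid clones, by 0.83 ± 0.28 (adjusted p = 0.152), and overlapped the tetraploid clones.

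Tfeb, the transcription factor of the set, stood higher in most polyploid clones than in diploid ones. It measured -1.88, -2.63 and -1.56 in the diploid clones, -1.65, -0.0028 and -0.46 in the triploid clones, and -0.86, -0.51 and -0.84 in the tetraploid clones. Triploid clone 1 lay within the diploid range, and the other 5 polyploid clones lay above it. The difference was 1.32 ± 0.43 for triploid minus diploid (adjusted p = 0.136) and 1.28 ± 0.43 for tetraploid minus diploid (adjusted p = 0.218). Without triploid clone 1, triploid minus diploid was 1.79 and passed (limma adjusted p = 0.0227), the only pass in 19 alternative settings. Over these settings the difference ran from 0.77 to 1.79 (adjusted p up to 0.371). Tetraploid minus diploid ran from 0.61 to 1.52 and passed in 0 of 19 (adjusted p up to 0.603). Triploid and tetraploid means, at -0.70 and -0.74, differed by 0.034 ± 0.43. The median difference of the 23 hydrolases was -0.078 for triploid minus diploid, 0.21 for tetraploid minus diploid and -0.40 for triploid minus tetraploid. A link between Tfeb and these genes was not tested. The arrays measure Tfeb's transcript, and not where its protein is in the cell, by which the factor is known to be regulated.

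The conjugation and initiation factors had differences from -0.63 (Becn1, triploid minus tetraploid) to 0.55 (Atg7, tetraploid minus diploid). Becn1, of the phosphatidylinositol 3-kinase complex, averaged 1.59 ± 0.32 in diploid, 1.46 ± 0.10 in triploid and 2.09 ± 0.18 in tetraploid cells (SD, n = 3 each), with the triploid clones below the tetraploid clones. Ulk1, the initiating kinase, had the narrowest range of the set over the 9 clones, 0.64, and its 3 differences lay between -0.11 and 0.025. Atg5 and Atg7, of the LC3 conjugation machinery, overlapped in all comparisons, with 0.41 ± 0.31 and 0.55 ± 0.25 for tetraploid minus diploid. Wipi1, which binds phosphatidylinositol 3-phosphate on the forming membrane, gave 1.84, 2.18 and 1.71 in the diploid clones, 1.53, 1.43 and 1.47 in the triploid clones, and 2.15, 1.17 and 2.89 in the tetraploid clones. Its triploid clones lay below the diploid clones, by -0.44 ± 0.38 (adjusted p = 0.567), and the tetraploid clones spread around both.

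Genes with and without CACGTG in the window were set side by side as a description. For the 15 genes with it the median difference was 0.094 for triploid minus diploid, 0.41 for tetraploid minus diploid and -0.26 for triploid minus tetraploid. For the 21 tested genes whose windows lack it the medians were -0.25, 0.23 and -0.55. In the 7 genes with TCACGTGA they were -0.31, 0.30 and -0.050. The sign for triploid minus diploid thus differed between the 6-letter and the 8-letter motif.

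The rest of the pathway was read from 5 further lists. Of 28 tested lumenal proteins, 24 stood lower in triploid than in tetraploid cells, with a median difference of -0.69. The other 4 stood higher (14.3%, against 61.9% of all features and 52.8% of named genes). The limma test passed 2 of the 28 (7.14%, against 2.71%). Ids, the iduronate sulfatase of heparan and dermatan sulfate breakdown, measured 0.67, -0.058 and 1.36 in the diploid clones, -0.38, -0.46 and -0.081 in the triploid clones, and 1.81, 2.14 and 2.20 in the tetraploid clones. Its groups did not overlap in any of the 3 comparisons, and Ids was lower in triploid than in tetraploid cells, by a log2 difference of -2.36 ± 0.34 (limma adjusted p = 0.0130). Ids passed in 17 of 19 alternative settings (adjusted p from 0.00511 to 0.0562), failing without triploid clone 2 (0.0561) and without tetraploid clone 3 (0.0562). Ids lies on the X chromosome like Gla and Lamp2, and the part of X chromosome number in the values of these genes was not tested.

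Of 27 other membrane and sorting proteins, 1 passed the test in triploid minus tetraploid and 1 in triploid minus diploid (3.70% each, against 2.71% and 1.84% of all features). Ostm1, the partner of the chloride transporter Clcn7, was lower in triploid than in tetraploid cells, by -1.02 ± 0.21 (adjusted p = 0.0404). Sort1 encodes the sortilin receptor that carries prosaposin and other cargo to the lysosome. It was well above background on 3 triploid arrays, 1 diploid array and 0 tetraploid arrays, so it entered the test through the group where it is high. Its triploid minus diploid adjusted p of 0.0493 therefore rests mostly on diploid signals not well above background, and its measured means were -2.07 in triploid and -4.88 in diploid cells. Ostm1 passed in 7 of 19 alternative settings (adjusted p from 0.0240 to 0.142) and Sort1 in 4 of 18 (0.0126 to 0.164); with normexp background correction Sort1's difference was 0.82, against 2.81 in the main setting. Leaving out any single clone other than diploid clone 3 ended the call of Ostm1 (0.0512 to 0.142), and leaving out any other than diploid clone 1 or triploid clone 1 ended that of Sort1. None of 17 tested pump subunits, 39 autophagy genes and 25 genes of the MiT/TFE and mTORC1 group passed in any comparison; at an unadjusted p under 0.05, limma gave 4, 5 and 8 of them in triploid minus tetraploid, 2, 5 and 4 in triploid minus diploid, and 1, 9 and 4 in tetraploid minus diploid. The shares of all features at that p were 20.8%, 21.2% and 14.8% in the same order of comparisons.

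**Figure D4:**
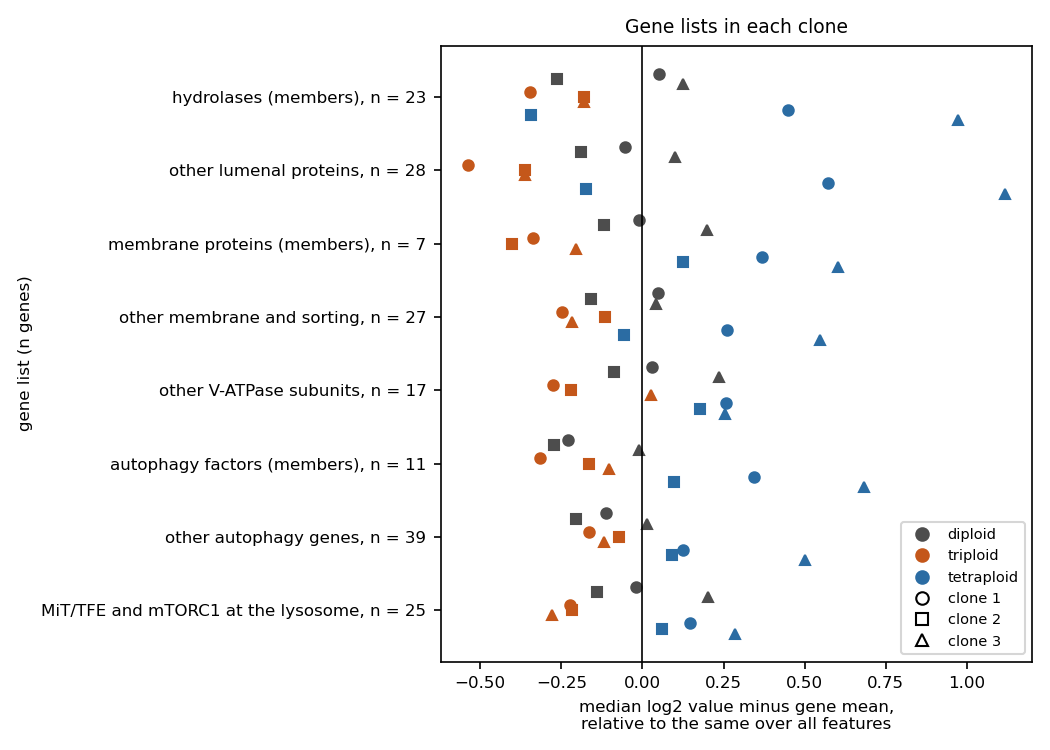
Median over the genes of each list of the log2 value minus the gene's mean, relative to the same median over all features, for each of the 9 clones (colour: ploidy, symbol: clone number; some symbols overlap). For the hydrolases tetraploid clones 1 and 3 stand at 0.45 and 0.97 and tetraploid clone 2 at -0.34, the same as triploid clone 1 within 0.01.

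The lumenal lists split the tetraploid clones more than the autophagy lists did. The hydrolases stood at 0.45, -0.34 and 0.97 in tetraploid clones 1, 2 and 3, and the other lumenal proteins at 0.57, -0.17 and 1.12. For the 11 autophagy factors the values were 0.34, 0.096 and 0.68, and for the 17 other pump subunits 0.26, 0.18 and 0.25. Over all named genes they were 0.042, 0.016 and 0.19. The triploid clones stood below 0 in all these lysosomal and autophagy lists except the pump subunits, where clone 3 was at 0.026. The difference in spread between lists was not tested.

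Markers of other cell types are given beside these genes: the epithelial sum was lower in every triploid clone than in every other clone, and the mesenchymal sums overlapped in all 3 comparisons. Taken singly, 6 of the 14 mesenchyme markers lay wholly lower in triploid than in tetraploid clones (42.9%, against 11.3% of all features). Their median difference was -0.71 over the 14, and 1 passed the limma test (7.14%, against 2.71%). Against diploid clones, 4 lay wholly lower in triploid clones (28.6%, against 10.8%). The summed signal of the 14 fibroblast and mesenchyme markers was 3203 to 3886 times the array's 75th percentile in the diploid clones, 2102 to 3831 in the triploid and 3423 to 4320.3 in the tetraploid clones. That of the 5 tested epithelial markers of 11 was 13.9 to 34.4 in the diploid, 1.27 to 2.25 in the triploid and 31.8 to 49.8 in the tetraploid clones. Their part in the lysosomal differences was not tested. Summed over the 4 tested macrophage markers of 14, the signal was 26.6 to 41.1 in the diploid, 18.3 to 33.7 in the triploid and 16.4 to 24.7 in the tetraploid clones.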

How the data were processed

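Gene expression was measured in 9 clones, 1 one-colour array each. Per the file headers, Feature Extraction 10.7.3.1 read the spots and the array design used build mm9. The deposited files hold the authors' processed signal as intensity, background-subtracted by the scanner software and not normalized between arrays. The authors also deposited a log2 table. Checked against the scanner files, it equalled log2 signal minus an array constant minus diploid clone 1, within 0.01 for 100% of probes. What was computed here: log2 of the processed signal minus each array's 75th percentile; 25469 probes were kept, each well above background in every clone of a group, and the brightest probe stood for a gene. The 26413 probes of 55681 with a gene symbol were named through RefSeq accessions in a table of GRCm38.p6. Groups were compared with limma 3.58.1 in R 4.3.3 over all 9 arrays, with Benjamini-Hochberg adjustment over 21797 features and a threshold of 0.05. The number of arrays limits the precision, and an exact permutation test of 3 against 3 cannot go below p = 0.1. The genes, lists and comparisons were chosen with earlier results of these data known. Genes named with values by clone were those called, the 3 of each role with the largest difference per comparison, and those whose groups did not overlap and differed by over 1; others were added after their values were seen. Other-list genes were named where called, except 1 that is not reported here. Alternatives were background correction, normalization, filter, probe choice, the authors' log2 table, the arrays in the fit, blocks and leaving out each clone. The script was tested on simulated data.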

Additional observations from a re-analysis of the deposited data

How the results depend on the processing

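Each of 32 gene and comparison values was recomputed under up to 19 alternatives, giving 604 values: 558 kept direction and side of the threshold, 7 passed it newly, 37 (of Psap, Ids, Ostm1 and Sort1) no longer passed and 2 turned sign. The sign turned for Lamp2 in triploid minus diploid (0.067 without triploid clone 2, and down to -0.70 without other clones) and for Ctsk in triploid minus tetraploid (0.31 without tetraploid clone 3, and down to -3.97 without other clones). In triploid minus tetraploid, where 1 gene was called, normexp background correction gave 2 (Psap and Atp6v0d1), and no filter, only the arrays of the 2 groups, the replicate block and the slide as a block each gave 0. Leaving out a clone gave 0 to 3 genes there, 0 to 1 in triploid minus diploid, 0 to 1 in tetraploid minus diploid and 0 to 1 in the test of any difference. Using only the arrays of the 2 groups called 1 gene in triploid minus diploid (Ctsk, limma adjusted p = 0.00109), and normexp called 1 (Psap) in the test of any difference. The median triploid minus tetraploid difference ranged from -0.63 to -0.19 on leaving out a clone. Psap kept its direction in all 19 alternatives (-1.41 to -1.12), with limma adjusted p from 0.0213 to 0.138. Counts over all features ranged from 61 to 1434 called in triploid minus diploid (402 in the main setting), 0 to 97 in tetraploid minus diploid (16), 118 to 1311 in triploid minus tetraploid (591) and 76 to 1466 in the test of any difference (518). The cause was not tested.

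Clone numbers are shared between groups but do not pair clones: deviations of same-numbered clones correlated at -0.13 to 0.093. With the replicate block, Psap had a limma adjusted p of 0.0650 and 224 features were called in triploid minus diploid; Ostm1 and Sort1 no longer passed (0.0764 and 0.0901), and no other call among the 32 values changed. The slide as a block is the same as leaving out diploid clone 1. With 3 clones a group and the signal of Ctsk and Manba at background in some clones, small differences were not detectable.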

Other observations

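Ctsc and Ctsh, lysosomal genes outside the main set, had large differences that did not pass the limma test. Their values spread widely between the clones of each polyploid group. All tetraploid clones lay below the diploid clones for Ctsc, and all triploid clones did for Ctsh. Ctsc, cathepsin C, which activates granule proteases in immune cells, measured 0.39, 0.30 and 0.13 in the diploid clones and 0.97 in triploid clone 1, against -5.91 and -5.70 in triploid clones 2 and 3. In the tetraploid clones it measured -1.19, -5.35 and -6.47. Ctsc was well above background on 5 of 9 arrays: 3 diploid, 1 triploid and 1 tetraploid. It thus entered the test through the diploid group, where it is high, and its differences rest mostly on polyploid signals not well above background. Ctsh, an aminopeptidase of the same family, ranged from -0.63 in triploid clone 2 to 4.40 in diploid clone 2, and was 1.68 and 3.20 in the other triploid clones.

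Rragb, Sesn1 and Mitf, from the list of MiT/TFE factors and nutrient sensors, are examples of genes whose groups did not overlap in a comparison and that did not pass the limma test. Rragb, one of the Rag GTPases that recruit mTORC1, was well above background on 4 of 9 arrays and measured -3.04, -2.04 and -2.44 in the tetraploid clones. None of the triploid arrays and 1 diploid array were well above background for Rragb, so it entered the test through its tetraploid values, and its level was at least 2.32-fold higher in tetraploid than in triploid cells (limma adjusted p = 0.0600). Sesn1, a p53 target and leucine sensor, measured 0.64, 0.84 and 1.03 in the diploid clones, 1.89, 1.07 and 0.85 in the triploid clones, and 1.94, 2.59 and 2.12 in the tetraploid clones. The tetraploid clones of Sesn1 lay above all others, by 1.38 from diploid cells (adjusted p = 0.107). Mitf, a relative of Tfeb, measured 1.91, 0.27 and 1.29 in the tetraploid clones and 0.078, -0.60 and -2.07 in the triploid clones, a difference of -2.02 (adjusted p = 0.144).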
